A study of Mus musculus with 2 samples.

Results

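The glycolysis and hypoxia response genes are 38 named mouse genes, described here in single cells of 1 treated tumour library. They comprise 17 enzymes of glycolysis from hexokinase to lactate dehydrogenase, 12 targets of the hypoxia-inducible factors (HIF) that are not enzymes of the pathway, 4 transporters of glucose and lactate, 3 regulators and 2 HIF alpha subunits. All 38 symbols were found among 33696 genes, all had at least 50 UMIs in the kept cells, and together they held 447749 UMIs, or 0.738% of the total. The series holds 2 libraries, each from subcutaneous tumours of 4T1, a mouse breast cancer cell line, with the genotype label WT: 1 group received PBS, a salt solution, and the other a treatment labelled PCN, for which the title has the name PATCH. Counts of the PBS library were not analysed here, so no comparison between treated and PBS tumours was made, and with 1 library there is no replicate check and no test. How many animals gave cells to the library is not stated in the labels. Of 12309 barcodes in the treated matrix, the authors kept 10835, with a median of 3575 unique molecular identifiers (UMIs, 1 per counted transcript) and 1512 genes per cell. Of the 11643 control barcodes in the authors' list, 37 stood in the matrix, and 33 of these were also barcodes of treated cells.

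Each kept cell was put in the first of 5 classes whose rule it met, by the share of its UMIs from a few class genes. This gave 3518 neutrophils (32.5% of kept cells), 325 fibroblasts (3.0%), 322 tumour cells (2.97%), 238 T and natural killer (T/NK) cells (2.20%) and 4672 macrophages (43.1%), with 1760 cells (16.2%) unclassed. Markers that the rule did not use were highest in their own class for 7 of 7 neutrophil, 6 of 6 fibroblast, 6 of 6 tumour, 7 of 7 T/NK and 7 of 7 macrophage genes. Summed neutrophil markers in the other classes stood at 1.13% of their neutrophil level in fibroblasts, 2.28% in tumour cells, 2.90% in T/NK cells and 5.74% in macrophages. Summed macrophage markers stood in neutrophils at 9.24% of their macrophage level, and 311 neutrophils met more than 1 class rule. The fibroblast class also held 580.1 CPM of 3 mural markers, and the T/NK class 207 CPM of 4 endothelial and 179.6 CPM of 5 dendritic markers. Median depth differed, from 1698 UMIs per neutrophil to 11662 per fibroblast. Levels are UMIs summed over the cells of a class, scaled to 1000000 UMIs of that class (CPM), and intervals are 95% intervals for counting error only. The kit reads 1 end of each transcript, so levels of different genes were compared without division by length.

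Glycolysis splits glucose into pyruvate and, when lactate dehydrogenase follows, lactate, and it needs glucose carriers at one end and lactate carriers at the other. HIF alpha subunits are made all the time and destroyed when oxygen is present, after prolyl hydroxylases mark them. In low oxygen they persist, pair with ARNT and switch on genes for glucose uptake, glycolysis, pH control, mitochondrial removal and vessel growth. HIF1A protein is also raised by inflammatory signals in myeloid cells, and neutrophils are known to rely on glycolysis.

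Across the classes the enzymes varied less than the HIF targets. From the lowest to the highest class, levels spanned a median of 2.57-fold over the 17 enzymes and 7.26-fold over the 12 HIF targets, against 8.05-fold over all 14287 genes with at least 50 UMIs. For genes within a factor of 2 of the lists' median UMIs, the median span was 4.85-fold for the enzymes' range and 4.66-fold for that of the HIF targets. The span was under 4-fold for 11 of 17 enzymes and for 4 of 12 HIF targets. A gene was called led by a class when its CPM there was at least 2 times that of the next class. This held for 12 of the 38 members, where the background over all measured genes was 31.7%, so members were led about as often as all measured genes. Genes within a factor of 2 of the lists' median UMIs were led less often, 304 of 1364 for the enzymes' range and 524 of 2662 for that of the HIF targets. By role, a class led 1 of 17 enzymes, 6 of 12 HIF targets, 3 of 4 transporters, 2 of 3 regulators and 0 of 2 HIF subunits. Neutrophils led 10 members, where the background was 5.19%, fibroblasts led 1 (background 7.97%) and tumour cells led 1 (background 8.07%). No member was led by T/NK cells (background 6.29%) or macrophages (background 4.18%), and none had its highest level in T/NK cells.

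**Figure D1:**
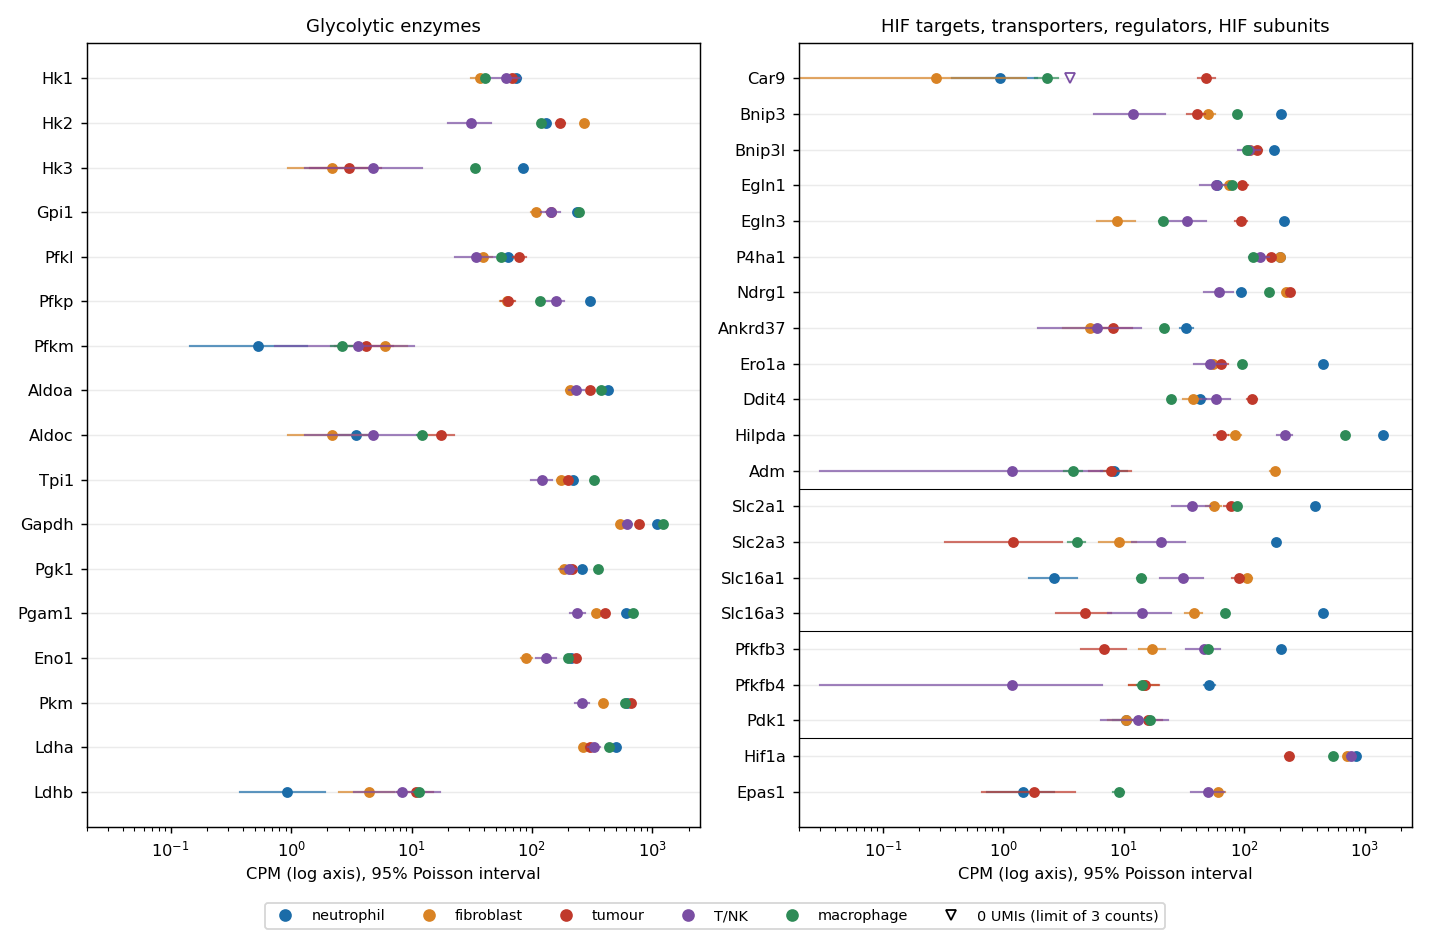
Level of each of the 38 members in CPM (log axis) in the 5 classes, with bars for the 95% Poisson interval and an open triangle for the limit of 3 counts where a class had 0 UMIs; enzymes stand at left and the other members at right. Enzymes such as Gapdh and Pkm bunch across classes, while Slc2a3, Slc16a3, Car9 and Adm spread over more than an order of magnitude.

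Neutrophils held the most HIF target UMIs relative to enzyme UMIs. Summed over the list, the 12 HIF targets stood at 2905 CPM in neutrophils, 1407 in macrophages, 1074 in tumour cells, 1030 in fibroblasts and 744.6 in T/NK cells. The 17 enzymes summed to 4842 CPM in macrophages, 4833 in neutrophils, 3660 in tumour cells, 2720.4 in fibroblasts and 2586 in T/NK cells. As a share of UMIs, macrophages and neutrophils thus held nearly the same summed enzyme level, while the HIF targets stood higher in neutrophils. UMIs per cell gave another picture for the most abundant gene of each list. Gapdh had 9.69 per macrophage and 2.34 per neutrophil, and Hilpda 5.43 and 3.04. Of the HIF targets, only Ero1a and Egln3 had more UMIs per neutrophil than per macrophage. Per 100 enzyme UMIs there were 60.1 HIF target UMIs in neutrophils (59.1 to 61.1), 37.9 in fibroblasts (36.5 to 39.3), 29.4 in tumour cells (28.3 to 30.5), 29.1 in macrophages (28.8 to 29.3) and 28.8 in T/NK cells (26.3 to 31.5). Unclassed cells, which held 2802 CPM of 4 osteoclast markers, had 45.0. Hilpda, which codes for a small lipid droplet protein, made up a large part of this. Without it the values were 30.7 in neutrophils, 34.8 in fibroblasts, 27.6 in tumour cells, 20.4 in T/NK cells and 14.9 in macrophages, so that fibroblasts stood highest and macrophages lowest.

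Set against all other kept cells, the median log2 ratio of the enzymes in neutrophils was 0.03 and that of the HIF targets 0.58, while the median over all measured genes was -1.43. At least 2-fold higher in neutrophils were 2 of 17 enzymes and 4 of 12 HIF targets (background 9.28%), and at least 2-fold lower were 3 enzymes and 3 HIF targets (background 60.1%). In fibroblasts the medians were -0.92 for the enzymes and -0.67 for the HIF targets, with 2 enzymes and 1 HIF target at least 2-fold higher (background 17.6%) and 7 and 6 lower (background 24.4%). In tumour cells they were -0.34 and 0.14, with 0 and 2 at least 2-fold higher (background 24.9%) and 2 and 5 lower (background 24.8%). The tumour median of the HIF targets went below 0, to -0.62, when every cell was thinned to 1000 UMIs. In T/NK cells the medians were -0.72 and -1.62, with none higher (background 17.4%) and 6 enzymes and 7 HIF targets lower (background 31.2%). In macrophages they were -0.01 and -0.69, with none higher (background 6.29%), 0 enzymes lower and 5 HIF targets lower (background 22.5%). Macrophages gave most of the UMIs that every other class was set against.

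**Figure D2:**
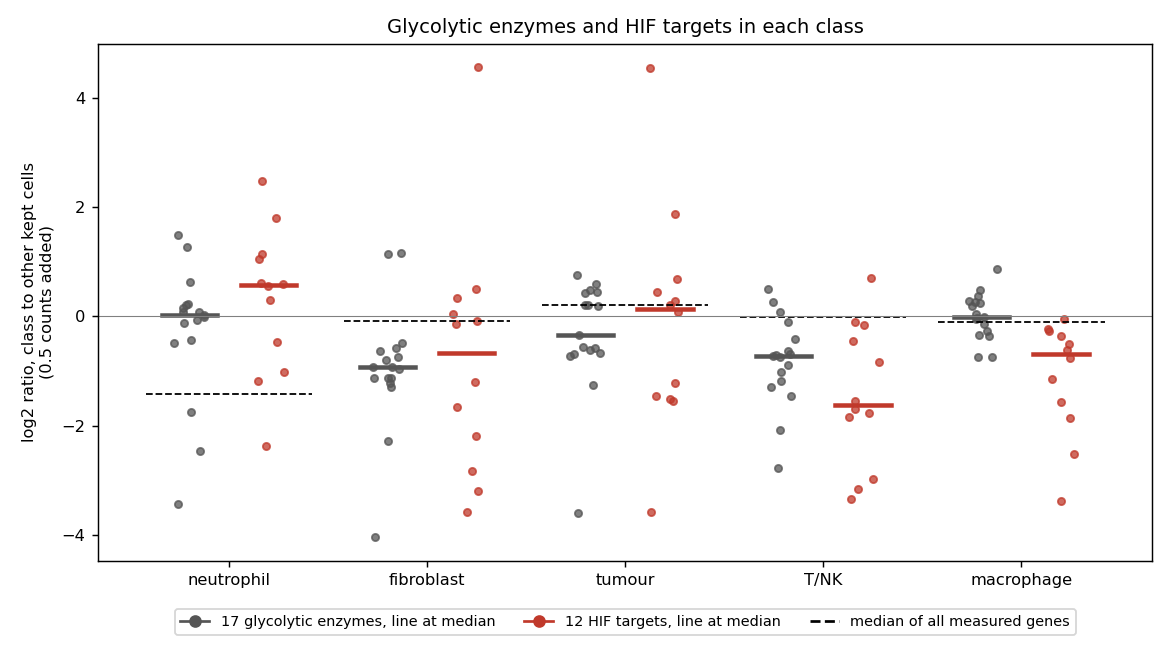
log2 ratio of each enzyme (grey) and HIF target (red) in a class to all other kept cells, with 0.5 counts added to each sum; thick lines are list medians and dashed lines the median of all measured genes. In neutrophils the medians of both lists, 0.03 and 0.58, lie above the dashed line at -1.43, and in T/NK cells the HIF targets have a median of -1.62, under the enzymes at -0.72.

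CPM is a share of a class's UMIs, and neutrophils had the fewest UMIs per cell. On CPM 18 of the 38 members were highest in neutrophils, and as UMIs per cell, with no scaling, 5 were, against 13 in tumour cells, 11 in macrophages and 9 in fibroblasts. Per cell, 5 of the 10 members led by neutrophils were still highest there, 3 were highest in macrophages, 1 in fibroblasts and 1 in tumour cells. Slc16a3 had 0.964 UMIs per neutrophil and 0.551 per macrophage, and Slc2a3 0.395 and 0.0323. Slc2a1 had 0.823 per neutrophil and 0.804 per tumour cell, and Ero1a 0.963 per neutrophil and 0.762 per macrophage. Hilpda had 3.04 per neutrophil and 5.43 per macrophage, and Egln3 0.458 per neutrophil and 0.969 per tumour cell. Hk3 had 0.179 per neutrophil and 0.268 per macrophage, Bnip3 0.436 and 0.694, and Pfkfb4 0.110 per neutrophil and 0.166 per fibroblast. Pfkfb3 had 0.436 per neutrophil and 0.397 per macrophage. Among kept cells Slc2a1, Slc2a3, Slc16a3, Ero1a and Pfkfb3 were therefore highest in neutrophils on both scales. Hilpda, Hk3, Bnip3, Egln3 and Pfkfb4 were highest there on CPM only. For Slc2a1 the tumour value rests on 259 UMIs and is too close to the neutrophil value to separate them. Kept cells all had under 20000 UMIs. The 436 left-out tumour barcodes held 1059 Slc2a1 and 815 Ero1a UMIs, so the order per cell for these genes holds for kept cells only.

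HIF binds DNA at a short core, ACGTG or GCGTG. RefSeq start sites of build GRCm38.p6 gave windows of 300 bases, 250 before and 50 after the start, for 34 of the 38 members. Bnip3l, Slc2a3, Epas1 and Ndrg1 had none. Both strands were searched, and a core stood in 41 of 48 windows (85.4%), in 11 of 11 windows of HIF targets and in 22 of 28 windows of enzymes (78.6%). Of all 32851 windows, 43.8% held one, and of windows with as many CpG as the middle of the members, 65.8%. These last had a median of 18 CpG, against 26 in windows of HIF targets and 18.5 in those of enzymes. Some genes had several windows. By gene, a core stood in 10 of 10 HIF targets and 15 of 17 enzymes, against 46.7% of all genes with a window. The palindrome CACGTG, which contains the core and is also the E-box read by other factors, stood in 7.15% of all windows. A match is a run of letters and says nothing about binding. The 250 bases before the start are shown for 5 genes led by neutrophils and for Car9, led by tumour cells, as examples of transporters and HIF targets led by a class. They are written 5′ to 3′ on the gene's strand, with the cores in capitals on either strand, as ACGTG or GCGTG or their reverse complements CACGT and CACGC.
Slc2a1: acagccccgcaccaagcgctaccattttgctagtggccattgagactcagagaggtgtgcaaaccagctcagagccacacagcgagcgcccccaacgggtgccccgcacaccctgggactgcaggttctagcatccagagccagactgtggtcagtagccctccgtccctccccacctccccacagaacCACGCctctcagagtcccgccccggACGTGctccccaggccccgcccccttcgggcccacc
Slc16a3: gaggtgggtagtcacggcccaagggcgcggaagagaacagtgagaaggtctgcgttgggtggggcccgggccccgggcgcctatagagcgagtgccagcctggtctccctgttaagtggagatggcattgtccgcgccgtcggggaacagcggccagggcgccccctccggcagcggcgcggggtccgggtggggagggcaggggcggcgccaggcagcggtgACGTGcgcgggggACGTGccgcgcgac
Ero1a: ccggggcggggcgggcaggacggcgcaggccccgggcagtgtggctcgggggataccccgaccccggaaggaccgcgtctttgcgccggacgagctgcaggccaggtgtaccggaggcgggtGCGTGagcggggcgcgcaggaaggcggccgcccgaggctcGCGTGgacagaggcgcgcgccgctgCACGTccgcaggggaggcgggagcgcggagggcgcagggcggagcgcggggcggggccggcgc
Bnip3: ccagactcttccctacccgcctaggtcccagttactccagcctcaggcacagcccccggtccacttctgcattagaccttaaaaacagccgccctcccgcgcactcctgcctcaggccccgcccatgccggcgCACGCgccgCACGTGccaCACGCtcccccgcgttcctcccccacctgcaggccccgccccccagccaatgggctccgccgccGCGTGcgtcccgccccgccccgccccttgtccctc
Egln3: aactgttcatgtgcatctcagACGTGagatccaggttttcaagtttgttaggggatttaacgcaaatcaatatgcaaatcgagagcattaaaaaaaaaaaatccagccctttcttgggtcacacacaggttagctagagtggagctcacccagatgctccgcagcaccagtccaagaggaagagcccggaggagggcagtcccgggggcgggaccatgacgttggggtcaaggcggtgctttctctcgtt
Car9: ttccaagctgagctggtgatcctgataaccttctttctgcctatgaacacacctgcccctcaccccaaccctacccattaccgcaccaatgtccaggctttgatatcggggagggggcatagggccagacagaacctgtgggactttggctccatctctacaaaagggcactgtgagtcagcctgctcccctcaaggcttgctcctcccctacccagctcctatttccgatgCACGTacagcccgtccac
Slc2a1 (chr4:119108495-119108744, plus strand) and Slc16a3 (chr11:120948817-120949066, plus strand) had 2 cores each. Ero1a (chr14:45318573-45318822, minus strand) had 3, and Bnip3 (chr7:138909507-138909756, minus strand) had 4, of which 1 is a CACGTG. Egln3 (chr12:54203875-54204124, minus strand) and Car9 (chr4:43506776-43507025, plus strand) had 1 each, so a gene led by neutrophils and the gene led by tumour cells had the same count.

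Hexokinase, which traps glucose in the cell by phosphorylating it, was the enzyme step with the clearest class isoforms. Hk1, the form of most tissues, was at 74.3 CPM in neutrophils, 68.5 in tumour cells, 60.7 in T/NK cells, 40.5 in macrophages and 37.1 in fibroblasts. Hk2, the inducible form that docks on mitochondria, was at 269.9 CPM in fibroblasts, 173 in tumour cells, 130.5 in neutrophils, 119 in macrophages and 30.9 in T/NK cells. Hk3, a form known from myeloid cells, was at 83.8 CPM in neutrophils, 33.8 in macrophages, 4.76 in T/NK cells, 3.01 in tumour cells and 2.20 in fibroblasts, and it was the 1 enzyme led by a class, 2.48-fold (2.25 to 2.73) above macrophages on CPM but not per cell. Hk2 was 1.56-fold (1.41 to 1.74) higher in fibroblasts than in tumour cells, the next class, and neither of these held Hk3 above 3.01 CPM.

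Gpi1, which turns glucose phosphate into fructose phosphate, was at 246 CPM in macrophages, 235 in neutrophils, 144 in T/NK cells, 143 in tumour cells and 108 in fibroblasts. Phosphofructokinase, the committed step, is coded by 3 genes. Pfkl, the liver form, was at 78.4 CPM in tumour cells, 63.1 in neutrophils, 55.3 in macrophages, 39.3 in fibroblasts and 34.5 in T/NK cells. Pfkp, the platelet form, was at 304 CPM in neutrophils, 157 in T/NK cells, 117 in macrophages, 63.7 in tumour cells and 62.6 in fibroblasts, which is 1.94-fold (1.62 to 2.33) from neutrophils to the next class and just under the limit for being led. Pfkm, the muscle form, was at most 6.04 CPM, in fibroblasts. In tumour cells Pfkl and Pfkp were nearly level, and in the other 4 classes Pfkp was the higher.

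The main genes of the lower pathway spanned the classes more narrowly than the median member, at 5.48-fold, but the minor forms Aldoc and Ldhb did not. Aldoc ranged from 2.20 CPM in fibroblasts to 17.4 in tumour cells, and Ldhb from 0.930 in neutrophils to 11.6 in macrophages. Aldolase, which splits the sugar, came from Aldoa at 432 CPM in neutrophils, 378 in macrophages, 305 in tumour cells, 234 in T/NK cells and 207 in fibroblasts, while Aldoc, the brain form, reached at most 17.4 CPM, in tumour cells. Triose phosphate isomerase, Tpi1, was at 324 CPM in macrophages, 218 in neutrophils, 198 in tumour cells, 174 in fibroblasts and 121 in T/NK cells. Gapdh, the oxidation step and the most abundant enzyme here, was at 1221 CPM in macrophages, 1096 in neutrophils, 770.0 in tumour cells, 619.7 in T/NK cells and 538 in fibroblasts. The order of classes was similar in these 3, with fibroblasts and T/NK cells low, but macrophages were highest in Tpi1 and Gapdh and neutrophils in Aldoa. Pgk1, the first step to yield ATP, was at 355 CPM in macrophages, 258 in neutrophils, 217 in tumour cells, 202 in T/NK cells and 183 in fibroblasts. Pgam1, the mutase after it, was at 692 CPM in macrophages, 600.0 in neutrophils, 408 in tumour cells, 343 in fibroblasts and 238 in T/NK cells. Eno1, the enolase, was at 232 CPM in tumour cells, 212 in neutrophils, 200.4 in macrophages, 131 in T/NK cells and 90.0 in fibroblasts, and its near-identical copy Eno1b had 602 UMIs against 12305. Pkm, the pyruvate kinase that ends the pathway, was at 667 CPM in tumour cells, 619.9 in neutrophils, 597 in macrophages, 387 in fibroblasts and 262 in T/NK cells. Ldha, which makes lactate, was at 501 CPM in neutrophils, 436 in macrophages, 329 in T/NK cells, 302 in tumour cells and 267 in fibroblasts, and Ldhb, the form that favours pyruvate, was at most 11.6 CPM, in macrophages. The widest span among the most abundant of these, Gapdh, Pgam1, Pkm, Aldoa and Ldha, was 2.91-fold, for Pgam1. Several of these enzymes have many near-identical pseudogene copies in the mouse genome, and how reads shared with copies were counted is not given in the sources used here, so their levels are uncertain to that extent.

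Hilpda was the most abundant HIF target in neutrophils, macrophages and T/NK cells, but in tumour cells and fibroblasts Ndrg1 was, at 242 and 224 CPM. Hilpda was at 1421 CPM in neutrophils, 684 in macrophages, 218 in T/NK cells, 84.3 in fibroblasts and 64.6 in tumour cells, with 95% intervals of 1394 to 1448 in neutrophils and 676 to 693 in macrophages. The 2.08-fold step between them (2.03 to 2.12) was just inside the limit for being led, as were Egln3 at 2.28-fold and Bnip3 at 2.33-fold, while Ddit4 at 1.99-fold was just outside. With all barcodes of the matrix the Hilpda step had a log2 of 0.99, under the limit. In cells thinned to 1000 UMIs, 48.1% of neutrophils (46.3% to 49.9%) and 32.9% of macrophages (31.5% to 34.3%) had a Hilpda UMI, against 4.32% of tumour cells (2.25% to 7.42%). Before thinning the shares were 57.3%, 66.5% and 35.4%, at the different depths of the classes.

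Ero1a, which forms disulfide bonds in the endoplasmic reticulum and consumes oxygen, was at 450.1 CPM in neutrophils, 96.0 in macrophages, 63.7 in tumour cells, 55.5 in fibroblasts and 52.3 in T/NK cells. Neutrophils stood 4.69-fold (4.47 to 4.92) above macrophages, the widest step to the next class among the HIF targets they led. Bnip3, which marks mitochondria for removal, was at 204 CPM in neutrophils, 87.4 in macrophages, 49.7 in fibroblasts, 40.3 in tumour cells and 11.9 in T/NK cells. Its relative Bnip3l, with the same role, was at 176 CPM in neutrophils, 128 in tumour cells, 112 in fibroblasts, 109 in T/NK cells and 105 in macrophages, a span of 1.68-fold (1.58 to 1.79). The pair thus held both a gene led by neutrophils and one of the flattest members.

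Egln3, the prolyl hydroxylase that HIF induces, was at 214 CPM in neutrophils, 93.8 in tumour cells, 33.3 in T/NK cells, 21.0 in macrophages and 8.79 in fibroblasts. Neutrophils were 2.28-fold (2.02 to 2.58) above tumour cells and 24.3-fold (17.2 to 35.7) above fibroblasts. Egln1, the main oxygen sensor of the family, was at 95.9 CPM in tumour cells, 78.8 in macrophages, 75.5 in fibroblasts, 59.7 in neutrophils and 58.3 in T/NK cells, so its highest class was tumour and its span 1.65-fold (1.21 to 2.27). P4ha1, which hydroxylates collagen, was at 199.6 CPM in neutrophils, 198 in fibroblasts, 166 in tumour cells, 134 in T/NK cells and 119 in macrophages, with neutrophils and fibroblasts apart by 1.01-fold (0.921 to 1.10), which does not separate them.

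Car9 and Adm were each near 0 outside 1 class. Car9, a surface carbonic anhydrase that handles acid, had 162 UMIs in tumour cells, with an interval of 41.5 to 56.8 CPM. Its levels were 48.7 CPM in tumour cells, 2.29 in macrophages, 0.930 in neutrophils, 0.275 in fibroblasts and 0 in T/NK cells. T/NK cells had 0 UMIs, which allows up to 3.57 CPM. Tumour cells were 21.2-fold (16.2 to 28.0) above macrophages, the next class. Adm, which codes for the vessel-relaxing peptide adrenomedullin, was at 179 CPM in fibroblasts, 8.37 in neutrophils, 7.81 in tumour cells, 3.80 in macrophages and 1.19 in T/NK cells, and fibroblasts were 21.4-fold (16.5 to 28.2) above neutrophils. Without thinning, a Car9 UMI was seen in 29.2% of tumour cells, at 0.503 UMIs per cell, and an Adm UMI in 44.0% of fibroblasts, at 2.01 per cell. At so few UMIs a cell with 0 cannot be read as one without the transcript.

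Ndrg1, a stress-induced differentiation gene, was at 242 CPM in tumour cells, 224 in fibroblasts, 162 in macrophages, 94.7 in neutrophils and 61.9 in T/NK cells, with tumour cells and fibroblasts apart by 1.08-fold (0.977 to 1.19). Ddit4, an inhibitor of the growth kinase mTORC1, was at 116 CPM in tumour cells, 58.3 in T/NK cells, 43.3 in neutrophils, 37.3 in fibroblasts and 24.7 in macrophages. Ankrd37, a small ankyrin protein, was at 33.1 CPM in neutrophils, 21.8 in macrophages, 8.11 in tumour cells, 5.95 in T/NK cells and 5.22 in fibroblasts. These 3 genes did not share a leading class, since Ndrg1 and Ddit4 were highest in tumour cells and Ankrd37 in neutrophils. On CPM, 7 of the 12 HIF targets were highest in neutrophils, 4 in tumour cells and 1 in fibroblasts, and 6 were lowest in T/NK cells. Per kept cell the order was another one, with 5 highest in tumour cells, 3 in macrophages, 3 in fibroblasts and 1, Ero1a, in neutrophils.

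Transporters had the widest spans of all roles, with a median of 59.2-fold. Slc2a1 (GLUT1), the common glucose carrier, was at 385 CPM in neutrophils, 86.8 in macrophages, 77.8 in tumour cells, 56.0 in fibroblasts and 36.9 in T/NK cells, and neutrophils were 4.43-fold (4.21 to 4.66) above macrophages. Slc2a3 (GLUT3), a glucose carrier of high affinity, was at 185 CPM in neutrophils, 20.2 in T/NK cells, 9.06 in fibroblasts, 4.07 in macrophages and 1.202 in tumour cells, 9.13-fold (5.68 to 15.7) from neutrophils to T/NK cells. Slc16a3 (MCT4), the lactate exporter of glycolytic cells, was at 450.4 CPM in neutrophils, 69.5 in macrophages, 38.2 in fibroblasts, 14.3 in T/NK cells and 4.81 in tumour cells, 6.48-fold (6.16 to 6.83) from neutrophils to macrophages. Slc16a1 (MCT1), which moves lactate either way, was at 105 CPM in fibroblasts, 89.9 in tumour cells, 30.9 in T/NK cells, 13.97 in macrophages and 2.66 in neutrophils. The 2 lactate carriers were thus ordered in opposite ways, with neutrophils at the top for Slc16a3 and at the bottom for Slc16a1. Summed neutrophil markers stood in macrophages at 5.74% of their neutrophil level, and their part in the macrophage levels of these genes was not tested.

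The regulators set the pace of the pathway. Pfkfb3, which makes the activator of phosphofructokinase, was at 204 CPM in neutrophils, 49.97 in macrophages, 46.4 in T/NK cells, 17.3 in fibroblasts and 6.91 in tumour cells, 4.08-fold (3.81 to 4.36) from neutrophils to macrophages. Pfkfb4, its relative, was at 51.5 CPM in neutrophils, 15.0 in tumour cells, 14.8 in fibroblasts, 14.1 in macrophages and 1.19 in T/NK cells, 3.43-fold (2.55 to 4.70) from neutrophils to tumour cells on CPM but not per cell. Pdk1 codes for an inhibitor of pyruvate dehydrogenase in mitochondria. Pdk1 was at 16.4 CPM in macrophages, 15.9 in tumour cells, 13.1 in T/NK cells, 10.4 in fibroblasts and 10.4 in neutrophils. Macrophages and tumour cells were apart by 1.03-fold (0.778 to 1.39). Both PFKFB genes were therefore led by neutrophils and the mitochondrial regulator was not.

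The order of the HIF subunits over the classes matched that of their summed targets only in part. Hif1a was at 854 CPM in neutrophils, 779 in T/NK cells, 716 in fibroblasts, 550.3 in macrophages and 234 in tumour cells, with neutrophils and T/NK cells apart by 1.10-fold (1.01 to 1.19). On CPM, neutrophils held both the highest summed HIF targets and the highest Hif1a. T/NK cells held the lowest summed HIF targets with Hif1a near the top, and tumour cells held the lowest Hif1a. As UMIs per cell, Hif1a was lowest in neutrophils, at 1.83. It was at 8.03 in fibroblasts, 4.37 in macrophages, 2.75 in T/NK cells and 2.42 in tumour cells. Epas1 (HIF-2 alpha) was at 61.2 CPM in fibroblasts, 49.96 in T/NK cells, 9.11 in macrophages, 1.80 in tumour cells and 1.46 in neutrophils, with fibroblasts and T/NK cells apart by 1.23-fold (0.878 to 1.75). In T/NK cells an Epas1 UMI was seen in 10.9% of cells, and the part in this level of the endothelial markers in that class was not tested. Transcript level says nothing of HIF protein, which is set by its breakdown.

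**Figure D3:**
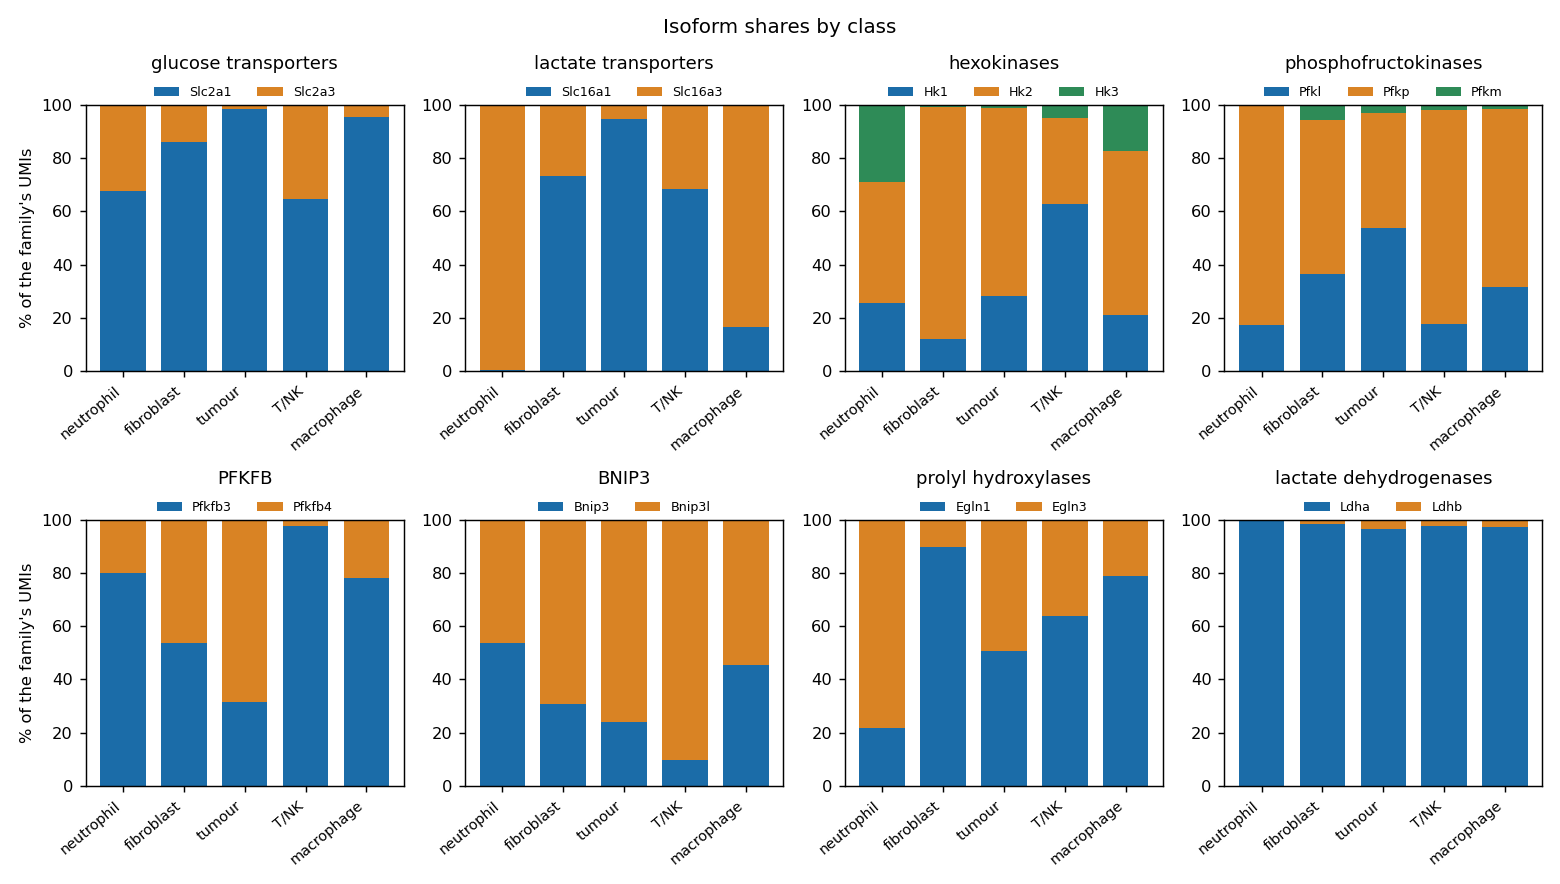
Share of each gene in the UMIs of its family, in percent, for 8 families and 5 classes; each bar sums to 100%. Slc16a3 makes up 99.4% of the lactate transporter UMIs in neutrophils and 5.08% in tumour cells, while Ldha is at 96.5% or more in every class.

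Shares within families name the class-specific isoforms apart from the overall level. Of the UMIs of Slc16a1 and Slc16a3, Slc16a3 made up 99.4% in neutrophils, 83.3% in macrophages, 31.6% in T/NK cells, 26.7% in fibroblasts and 5.08% in tumour cells. Of the glucose carriers, Slc2a3 made up 35.4% in T/NK cells (22.2% to 50.5%, from 48 UMIs), 32.4% in neutrophils (31.0% to 33.8%), 13.9% in fibroblasts, 4.48% in macrophages and 1.52% in tumour cells. Neutrophils and T/NK cells thus had the highest Slc2a3 shares, with intervals that overlap, and fibroblasts came next (9.78% to 19.0%). The T/NK share rests on 17 Slc2a3 UMIs. Of the hexokinases, Hk2 made up 87.3% in fibroblasts, 70.7% in tumour cells, 61.6% in macrophages, 45.2% in neutrophils and 32.1% in T/NK cells, where Hk1 took 63.0%. Hk3 took 29.1% in neutrophils and 17.5% in macrophages, and at most 4.94% elsewhere. Pfkp made up 82.7% of phosphofructokinase UMIs in neutrophils, 80.5% in T/NK cells, 67.0% in macrophages, 58.0% in fibroblasts and 43.5% (39.1% to 48.1%) in tumour cells, where Pfkl took 53.6% (49.1% to 58.1%). Of the 2 PFKFB genes, Pfkfb4 was the larger only in tumour cells, at 68.5% (56.6% to 78.9%). Egln3 made up 78.2% of the prolyl hydroxylase pair in neutrophils, 49.4% in tumour cells, 36.4% in T/NK cells, 21.1% in macrophages and 10.4% in fibroblasts. Bnip3 made up 53.6% of its pair in neutrophils and 9.80% in T/NK cells. Ldha, Aldoa and Hif1a were the main form in every class, at 96.5%, 94.6% and 92.1% or more.

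Within 4 of the classes, cells with more HIF target UMIs also had higher enzyme levels. Each cell was thinned to 1000 UMIs, shallower cells were left out, and cells were grouped by their UMIs of the 12 HIF targets. In neutrophils the summed enzyme level was 2784 CPM in 839 cells with 0 such UMIs, 3473 in 590 cells with 1, 3838 in 402 cells with 2 and 7016 in 1156 cells with 3 or more. The last group was 2.52-fold (2.41 to 2.64) above the first. In macrophages the same levels were 3822, 4135, 4842 and 6861 CPM, a 1.80-fold difference (1.73 to 1.86) between 785 and 1832 cells. In tumour cells the ratio was 1.95 (1.64 to 2.31) on 33 against 117 cells, and in fibroblasts 1.85 (1.53 to 2.24) on 45 against 130 cells, where another random thinning gave 1.43. T/NK cells had 6 cells with 3 or more and are not described. In neutrophils most of the difference lay between the cells with 2 and those with 3 or more. The last group has no upper limit of UMIs, so this step is wider than the others and shows no threshold.

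Single enzymes differed unequally over these groups. In neutrophils Tpi1 went from 89.4 to 391 CPM, Ldha from 236 to 819 and Hk2 from 41.7 to 271, while Pkm went from 480.3 to 741. Slc2a1 went from 209 to 638 CPM and Pfkfb3 from 129 to 326, but Slc16a3 was at 489 and 439 and Slc2a3 at 176 and 199.8. In macrophages Slc2a1 went from 50.2 to 200 CPM and Slc16a3 from 45.9 to 129.9, while Pfkfb3 was at 68.2 and 57.3. Hif1a differed little, at 818 and 924 CPM in neutrophils and 531 and 661 in macrophages. The 13 genes of oxidative phosphorylation, which draws on pyruvate burnt in mitochondria, went from 961 to 685 CPM in neutrophils and from 4135 to 3377 in macrophages. Slc2a1 thus stood higher with more HIF target UMIs in both classes, and Slc16a3 in macrophages.

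Other genes differed over the same groups. In neutrophils S100a8 went from 39349 to 22635 CPM, the 7 neutrophil markers from 14558 to 9901 and Actb from 14037 to 9881, while 7 macrophage markers were at 238 and 291. In macrophages Arg1 went from 495 to 1999 CPM, Mmp9 from 226 to 562, the 7 neutrophil markers from 552 to 1078 and the 7 macrophage markers from 5091 to 3957, while S100a8 was at 239 and 294. The macrophages with 3 or more HIF target UMIs had a median of 8880 UMIs before thinning and those with 0 had 6859.5. In tumour cells the 7 macrophage markers went from 197 to 30.3 CPM. The part of these in the enzyme levels was not tested. With Hilpda left out of the grouping the ratio was 2.80 in neutrophils and 2.16 in macrophages.

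**Figure D4:**
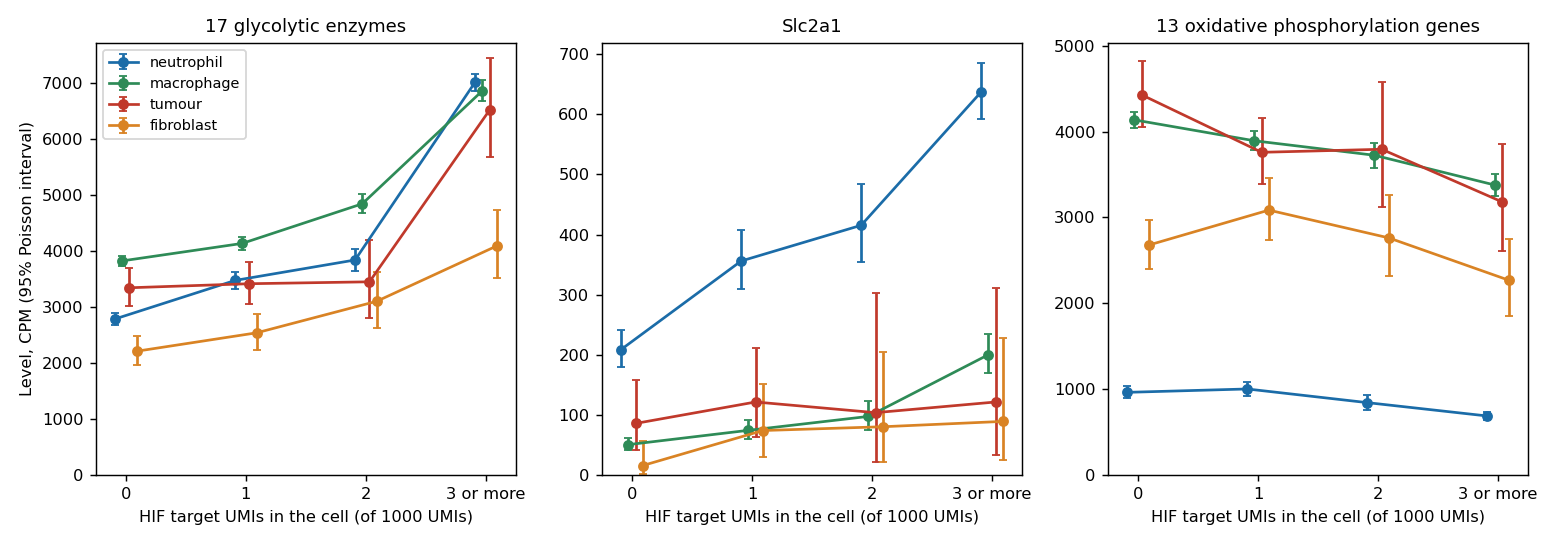
Summed level of 17 glycolytic enzymes (left), Slc2a1 (middle) and 13 oxidative phosphorylation genes (right) in CPM, with 95% Poisson bars, in cells thinned to 1000 UMIs and grouped by their HIF target UMIs, for 4 classes. In neutrophils the enzymes go from 2784 to 7016 CPM while oxidative phosphorylation genes go from 961 to 685.

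Cells of a class were also split by 1 gene. Arg1, arginase, is known from alternatively activated macrophages. Macrophages with an Arg1 UMI (1600 of 4552 cells at 1000 UMIs) had higher HIF targets than those without. Of 10 HIF targets with at least 50 UMIs, 6 were at least 2-fold higher, with a background of 1.10%, and 0 were at least 2-fold lower (background 1.87%). Egln3 was at 51.9 against 9.82 CPM, 5.28-fold (3.42 to 8.36), and Bnip3 at 180.6 against 50.5 CPM, 3.58-fold (2.93 to 4.39). Hilpda was at 1009 against 376 CPM, 2.68-fold (2.49 to 2.90), and Ddit4, Ankrd37 and Ndrg1 were 2.82-fold, 2.66-fold and 2.01-fold higher. None of 14 enzymes was 2-fold higher. The closest was Pgk1 at 1.94-fold (1.75 to 2.14) and Gapdh was 1.49-fold (1.41 to 1.57) higher. Slc2a1 was 2.31-fold (1.89 to 2.83) higher, and Pfkfb3 was at 63.1 and 63.7 CPM. The Arg1-positive cells had a median of 8815.5 UMIs against 6583, and neutrophil markers at 937 against 566 CPM, and the part of either was not tested.

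Neutrophils split by Retnlg, known from mature neutrophils of the blood, showed another pattern. Of 10 HIF targets none was 2-fold higher (background 2.72%) or lower (background 3.76%) in the 1703 cells with a UMI than in the 1284 without. Hilpda was at 1369 against 1773 CPM, 0.772 times (0.729 to 0.818). Gpi1 was 2.04-fold (1.70 to 2.46) higher, Slc2a3 2.19-fold (1.80 to 2.67) and Gapdh 1.81-fold (1.67 to 1.96), at 1231 against 681 CPM, while Hk2 was at 0.758 times (0.623 to 0.921). In this split Gpi1, Gapdh and Slc2a3 stood higher with Retnlg, while Hilpda and Hk2 stood lower. The cells with Retnlg had a median of 2084 UMIs against 1660.5 and neutrophil markers at 15984 against 7372 CPM, and the part of either was not tested.

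Tumour cells and fibroblasts were split by their own led genes at 5000 UMIs per cell. In 45 tumour cells with a Car9 UMI against 195 without, 2 of 8 HIF targets were at least 2-fold higher (background 0.757%) and 0 lower (background 3.24%). Ndrg1 was at 529 against 159 CPM, 3.33-fold (2.60 to 4.25), and Ero1a 2.21-fold (1.34 to 3.57) higher. Bnip3, named after its values were seen and with 45 UMIs under the minimum, was 5.42-fold (2.89 to 10.3) higher. Pgk1 was 2.01-fold (1.53 to 2.62) higher and Gapdh 1.86-fold (1.61 to 2.15), whereas Egln3 was at 93.3 and 102.6 CPM, 0.910 times (0.540 to 1.47), and Hilpda at 62.2 and 59.5. Egln3, at 93.8 CPM the second highest class for this gene, was therefore not seen to be higher in the tumour cells with Car9 at this depth. The 7 macrophage markers were at 44.4 and 174 CPM in these cells, and their part was not tested. In 88 fibroblasts with an Adm UMI against 177 without, none of 7 HIF targets was 2-fold higher (background 1.74%) or lower (background 3.36%). Hilpda was 1.78-fold (1.22 to 2.61), Ldha 1.52-fold (1.22 to 1.91) and Epas1 1.93-fold (1.25 to 2.96) higher. Acta2, a contractile gene, was at 27.3 against 782 CPM and the mural gene Rgs5 at 0 against 155.9 CPM, so the fibroblasts with Adm were those with low mural genes, and the part of this was not tested.

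**Figure D5:**
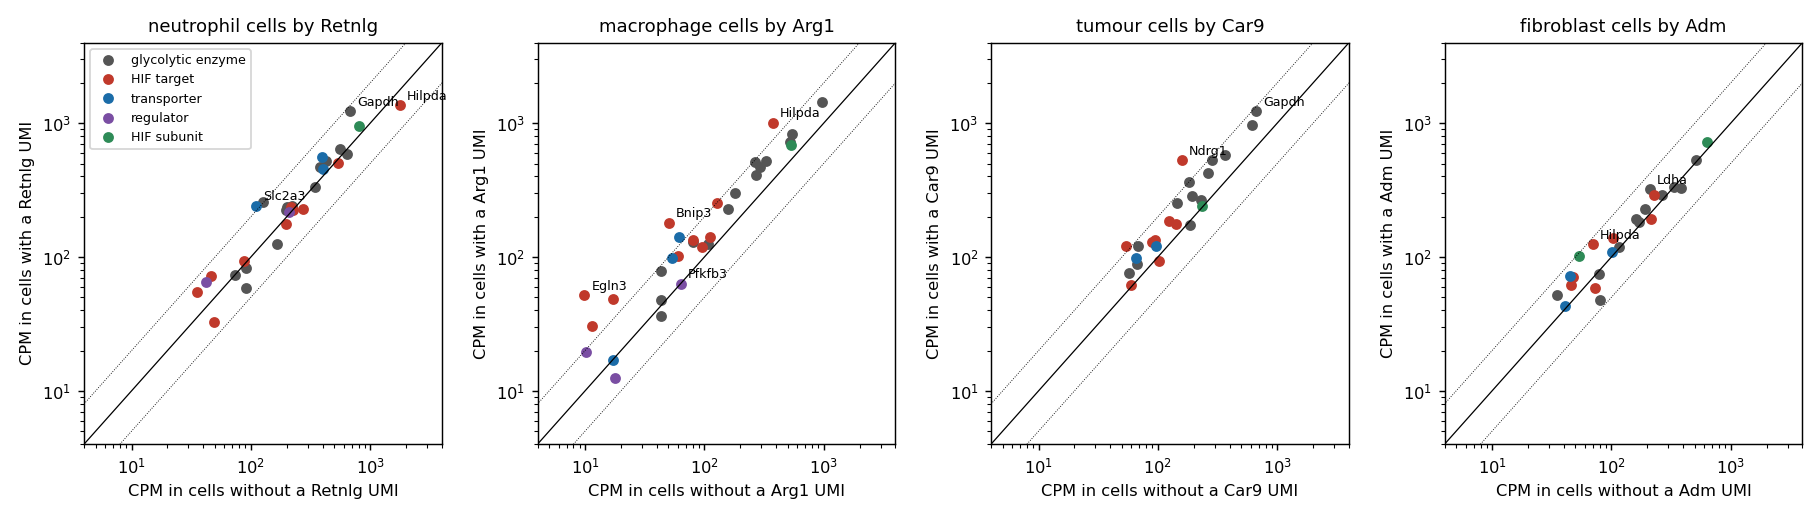
Level of each member in cells with a UMI of the named gene against cells without, in CPM on log axes, for members with at least 50 UMIs; the solid line marks equal levels and the dotted lines 2-fold. In macrophages split by Arg1 the HIF targets Egln3 and Bnip3 lie above the upper dotted line while Pfkfb3 lies on the solid one.

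Neighbouring pathways, taken from lists chosen for this tissue, gave context to the members. In neutrophils 11 of 13 oxidative phosphorylation genes and 11 of 15 genes of pyruvate entry and the citric acid cycle were at least 2-fold lower than in other kept cells, where 60.1% of all genes were. Their median log2 ratios were -1.92 and -1.54 against -1.43 over all genes. Of 7 pentose phosphate genes, which make NADPH from glucose, 1 was lower in neutrophils, with a median of -0.15. The glycogen enzyme Pygl, which frees glucose from its store, was at 233 CPM in neutrophils and 43.8 in macrophages, 5.32-fold (4.97 to 5.70). Neutrophils also led Slc2a6, another sugar carrier, by 3.45-fold (2.90 to 4.09) and Cox4i2, a hypoxia form of a cytochrome oxidase subunit, by 3.86-fold (2.90 to 5.13) at 12.1 CPM. As a share of UMIs, their glycolysis genes thus stood near the level of other cells. Most of the mitochondrial genes, like most genes, stood below it.

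Of 21 further HIF targets, fibroblasts had 9 at least 2-fold higher (background 17.6%) and 3 lower (background 24.4%), and led 6 (background 7.97%). Among these were Angptl4 at 168 CPM, 47.1-fold (16.0 to 229), and Loxl2 at 142 CPM, 59.3-fold (29.9 to 138). Angptl4 codes for a secreted lipase inhibitor and Loxl2 for a collagen cross-linking enzyme. Neutrophils had 3 of the 21 higher (background 9.28%) and 13 lower (background 60.1%), shares like those of all genes. Ndufa4l2, a HIF target of the respiratory chain, was at 83.5 CPM in fibroblasts and 5.95 in T/NK cells. Fibroblasts with an Adm UMI had it at 109 CPM and those without, which held the mural genes, at 80.2, 1.36-fold (0.923 to 1.99). Tumour cells led Anln, a scaffold of cell division, at 78.1 CPM, 8.33-fold (7.06 to 9.81). Tumour cells also led Eno3, the muscle enolase, at 53.2 CPM, 14.6-fold (11.6 to 18.4), and macrophages led Slc16a7 (MCT2) at 27.7 CPM, 11.6-fold (7.30 to 19.6). Vegfa, the vessel growth factor, was at 196 CPM in macrophages, 122 in fibroblasts, 84.4 in neutrophils, 59.2 in tumour cells and 14.3 in T/NK cells, and so did not share the neutrophil lead of Hilpda. It was chosen after its values were seen.

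Many tumour barcodes lay outside the authors' kept cells. By the same rule 436 left-out barcodes were tumour cells, 394 of them at or above 20000 UMIs, against 322 kept. Car9 was at 27.8 CPM in the left-out barcodes and 48.7 in the kept, 0.570 times (0.474 to 0.688). Egln3 and Bnip3 were at 0.718 and 0.723 times, while Ldha was 1.30-fold (1.22 to 1.40) and Gapdh 1.22-fold (1.17 to 1.28) higher in the left-out barcodes. Over the lists, 11 of 17 enzymes were higher in the left-out barcodes, 7 with an interval above 1, and 6 were lower, none with an interval below 1. Of 12 HIF targets 9 were lower, 8 with an interval below 1, and 3 were higher, namely Egln1, Ankrd37 and Hilpda, none with an interval above 1. The median ratio was 1.07 over the enzymes and 0.821 over the HIF targets. Fibroblasts also had 242 left-out barcodes against 325 kept. There Adm was at 85.3 CPM in the left-out barcodes and 179 in the kept, 0.477 times (0.427 to 0.532), and Ndrg1 at 0.743 times. Gapdh was 1.51-fold (1.44 to 1.59), Eno1 1.65-fold and Ldha 1.43-fold higher in the left-out fibroblast barcodes, while Hk2 was at 0.964 times (0.892 to 1.04). The fibroblast levels given above are those of kept cells.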

How the data were processed

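The deposited file is a matrix of UMI counts per gene and barcode. Per the file header it was written by Cell Ranger 8.0.1, and the submitters' processing notes also name STAR. Per the labels' protocols the library was made with Chromium 3′ v3 chemistry. The build behind the counts, like its annotation, was not given in the sources used here. The authors' deposited cell list gives the kept cells, with 500 to 19989 UMIs each and 60652188 in all, and 1474 barcodes were left out, of which 1097 had 20000 UMIs or more. Members were matched by symbol, and of 2 rows named Aldoa the one with 23135 UMIs was used, not the one with 4.

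Classes were made by first match on the share of a cell's UMIs: neutrophil (S100a8, S100a9, Csf3r, G0s2 at 2% or more), fibroblast (Col1a2, Col3a1, Dcn, 0.5%), tumour (Krt8, Krt18, Krt7, Epcam, 0.1%), T/NK (Cd3e, Cd3g, Trbc2, Ncr1, 0.1%) and macrophage (C1qa, C1qb, Csf1r, Apoe, Lyz2, 0.3%). Counts were summed per class and scaled to 1000000. A log2 ratio adds 0.5 counts to each sum, and genes needed 50 UMIs over kept cells, or over both sides of a split. Intervals are exact Poisson, exact conditional Poisson for ratios and Clopper-Pearson for shares, at 95%. A count of 0 was bounded at 3 counts. For the thinned shares of cells, the grouping by HIF target UMIs and the splits, each cell was thinned to 1000 UMIs, or 5000 for splits of tumour cells and fibroblasts. Isoform shares, UMIs per cell and the shares of cells with a Car9, Adm or Epas1 UMI were not thinned. Scrublet in scanpy 1.11.5 marked 0 of 10835 cells, so it did not work here and no doublets were removed. Python 3.11.15, numpy 2.4.6, scipy 1.17.1, pandas 2.3.3 and matplotlib 3.10.9 were used, and the ratio and interval steps were tested on simulated data.

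All 38 members are named. Of each other list, up to 4 genes with at least 50 UMIs and the widest step from the highest to the next class are named, except 1 gene that is not reported here. The members, the lists, the grouping by HIF target UMIs and the splits by Arg1, Retnlg, Car9 and Adm were chosen with earlier results of these data known. Alternatives were all barcodes, a mean over cells, classes at equal weight, stricter classes, a total without class rule, mitochondrial and ribosomal protein genes, no high doublet scores, thinning and a higher gene minimum.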

Additional observations from a re-analysis of the deposited data

How the results depend on the processing

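With 1 library no replicate could be left out. No paired analysis was possible because each group has 1 library. The count of members led by 1 class was 12, and 11 to 16 under 7 alternatives. Over the 12 led members, 71 of 72 values kept a 2-fold lead, the exception being Hilpda with all barcodes at a log2 of 0.99. All these alternatives kept levels as a share of UMIs, so they cannot show how far the leads rest on that scaling. As UMIs per cell, only 5 of the 10 members led by neutrophils were still highest there. Of 90 list medians, 70 stayed inside the counting interval of the list's middle gene or genes and 20 fell outside it. That interval is not the spread of the median itself. With the other classes at equal weight the enzyme median was 0.38 in neutrophils, -0.71 in fibroblasts, -0.03 in tumour cells and 0.36 in macrophages, and the HIF target median -0.44 in macrophages. With all barcodes the enzyme median was -0.57 in fibroblasts and 0.19 in macrophages, and the HIF target median -0.07 in tumour cells and -0.38 in macrophages. As a mean over cells the HIF target median was -1.17 in fibroblasts, -0.34 in tumour cells, -2.08 in T/NK cells and -1.18 in macrophages, and the enzyme median -0.21 in tumour cells. With cells thinned to 1000 UMIs the tumour medians were -0.18 for enzymes and -0.62 for HIF targets, and the macrophage HIF target median -1.04. With a minimum of 200 UMIs the tumour enzyme median was -0.45. Chosen after seeing the data, leaving out unclassed cells gave 0.15 for enzymes and -0.57 for HIF targets in macrophages. The ratio of enzyme levels between cells with 3 or more and 0 HIF target UMIs, also varied after seeing the data, was 2.80 in neutrophils and 2.16 in macrophages without Hilpda, and 2.65 in neutrophils with stricter classes. The cause of these shifts was not tested. T/NK cells had the fewest UMIs of the classes, and a median of 1698 UMIs per neutrophil limits what a single cell shows.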
